A study of Mus musculus with 6 samples.

Results

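The Polycomb genes Bmi1, Suz12, Ezh1, Ezh2, Eed, Rnf2 and Ring1 were followed in mouse lung adenocarcinoma cells with and without forced expression of the microRNA cluster miR-200b-200a-429. Every probe set of the array annotated to 1 of these symbols alone was taken, which gave 21 probe sets for the 7 genes, of 45037 probe sets and 18193 genes in all. The cells were 344SQ, a mass culture of tumor cells taken at a subcutaneous site of a mouse with the alleles p53R172H∆g/+ and K-rasLA1/+. A lentivirus brought in either the cluster or the control vector, and GFP-positive pools were kept in puromycin. Each group has 3 cultures with 1 array each, named by the letters A, B and C of their labels. Both groups share the tumor genotype, the vector backbone and the drug, and nothing in the labels separates the 3 cultures of a pool beyond their letters, so p-values measure the spread between cultures, which may be technical.

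Polycomb proteins keep genes silent through marks on histones. In Polycomb repressive complex 2 (PRC2), Ezh2 or Ezh1 methylates histone H3 at a lysine, and Suz12 and Eed hold the complex together. In Polycomb repressive complex 1 (PRC1), Rnf2 or Ring1 attaches ubiquitin to histone H2A, with Bmi1 as a partner that stimulates the reaction. Bmi1 and Suz12 have been described as direct miR-200 targets in stem-like cancer cells, and the comparison asks whether their transcripts and those of their partners differ when the cluster is forced on.

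The mature microRNAs of the cluster are shown because their seeds decide which transcripts they can pair with. They are from RefSeq (GRCm38.p6, minus strand of chr4), 5′ to 3′, with the seed, bases 2 to 8, in capitals. The loci are chr4:156055685-156055706 for miR-200b-3p, chr4:156054911-156054932 for miR-200a-3p and chr4:156053916-156053937 for miR-429-3p.
miR-200b-3p: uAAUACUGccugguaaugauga
miR-429-3p: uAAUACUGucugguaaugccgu
miR-200a-3p: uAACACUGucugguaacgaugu
miR-200b-3p and miR-429-3p share 1 seed, and miR-200a-3p has another. The microRNAs themselves, target sites in the Polycomb transcripts and protein levels were not analysed here.

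Values are log2 signals after quantile normalization, and the brightest probe set stands for a gene with several. Group values are mean ± SD with n = 3, and differences are miR-200 minus control ± standard error with 95% intervals from limma, adjusted over all probe sets by the Benjamini-Hochberg method. A background gauge was set at 5.28, the highest reading on any array of the bacterial trp controls. All 7 genes had a mean above it on their brightest probe set, as did 15 of the 21 probe sets. Arrays control B and miR-200 A were unlike the rest: their median over 39 measured cell cycle genes was 8.09 and 8.14 against 10.64 to 11.02 elsewhere. On miR-200 C the median of 24 probe sets for bacterial spike-in transcripts was 7.59, against 8.33 to 8.56 on the other arrays. Of the listed markers, 5 of 5 epithelial, 3 of 7 fibroblast, 2 of 5 endothelial and 4 of 6 blood cell genes had means above the gauge, and Cdh1, the epithelial cadherin gene, read 13.14 to 13.46.

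None of the 7 genes and 0 of their 21 probe sets passed the threshold of adjusted p under 0.05, where 0.945% of all genes did (0.275% higher and 0.671% lower) and 0.744% of all probe sets. By limma's p before adjustment, Bmi1 and Eed were under 0.05 as higher and no member as lower, 2 of 7, beside 14.8% of all genes (6.35% higher and 8.47% lower). The same 2 genes had miR-200 values that all lay above the control values, beside 11.4% of all genes, and none had groups apart in the lower direction, beside 12.1%. The median difference over the 7 genes was 0.20, beside 0.0014 over all genes, and 0.06 beside -0.07 when array medians were subtracted instead. Before adjustment, 4 of the 21 had a p under 0.05 as higher and 0 as lower, beside 14.1% of all probe sets (7.18% higher and 6.93% lower). Groups did not overlap for 5 as higher and 1 as lower, beside 11.6% and 9.76%. The higher ones by either count were all probe sets of Bmi1, Eed and Rnf2, and an Eed probe set under the gauge was among them. Probe sets of the same gene are not independent, so these counts are not counts of genes. Neither Bmi1 nor Suz12 passed in either direction.

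**Figure D1:**
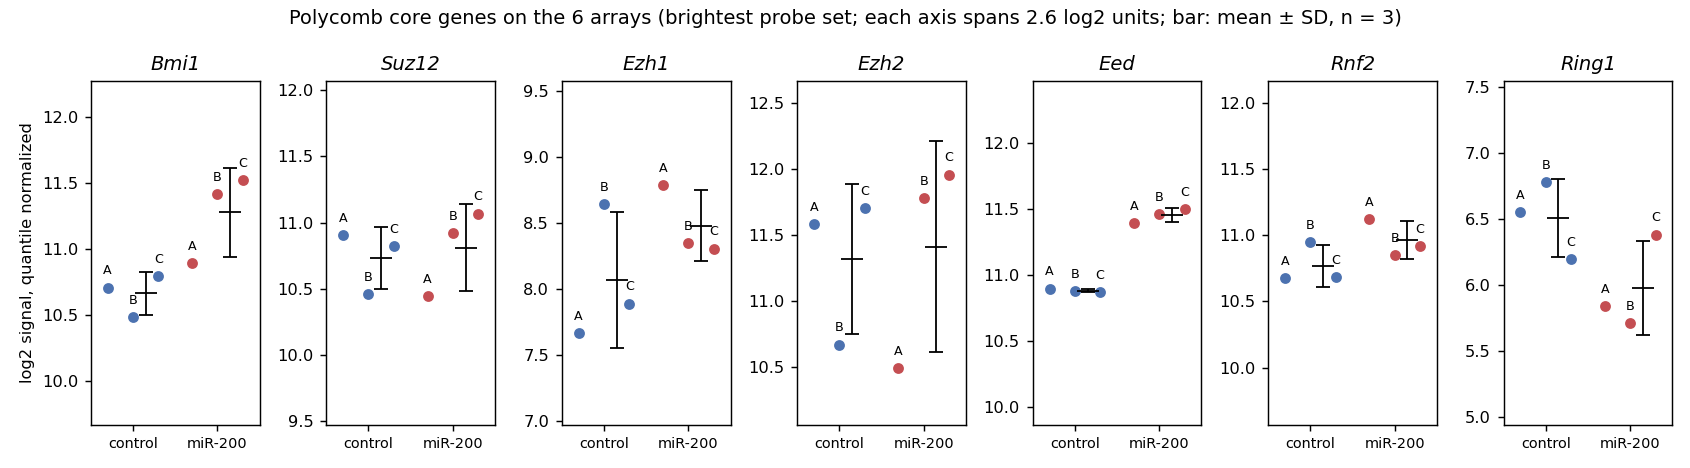
Log2 signal of the 7 Polycomb genes on the 6 arrays, 1 point per culture with its letter, blue for control and red for miR-200, with the mean and SD (n = 3) beside the points. Each vertical axis spans the same width on the log2 scale but has its own range; the Eed points form 2 tight groups at 10.88 and 11.45, whereas control B and miR-200 A are the lowest points of Ezh2.

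Bmi1, the PRC1 partner best known for self-renewal of stem cells, read 10.71, 10.49 and 10.80 in control A, B and C, and 10.90, 11.41 and 11.52 in the miR-200 cultures in the same order of letters. All miR-200 cultures lay above the controls, miR-200 A only narrowly. The means were 10.66 ± 0.16 and 11.28 ± 0.33, a difference of 0.61 ± 0.21 with an interval of 0.08 to 1.14, or 1.53-fold (1.06 to 2.21), which did not pass (limma, adjusted p = 0.294). Its other probe set read 9.89, 10.24 and 9.78 in the controls and 10.11, 10.36 and 10.47 in the miR-200 cultures, so the groups overlapped. That difference was 0.34 ± 0.18 (interval -0.12 to 0.80, adjusted p = 0.474). Without control B and miR-200 A the brighter probe set differed by 0.72 (adjusted p = 0.118).

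Rnf2, the main ubiquitin ligase subunit of PRC1, read 10.68, 10.95 and 10.68 in the controls and 11.12, 10.85 and 10.92 in the miR-200 cultures. The groups overlapped through control B, and the difference was 0.20 ± 0.15 (adjusted p = 0.627). Its other probe sets above the gauge differed by 0.30 ± 0.15 and 0.43 ± 0.14 with groups that did not overlap, and neither passed (adjusted p = 0.455 and 0.269). The remaining Rnf2 probe sets lay under the gauge, and 1 of them read 0.20 on control A and 4.08 on control B. Ring1, the related ligase, has a single probe set, which read 6.55, 6.78 and 6.20 in the controls and 5.84, 5.71 and 6.38 in the miR-200 cultures. It was the only one of the 7 genes with a difference below 0 on its brightest probe set, -0.53 ± 0.25 (interval -1.16 to 0.10, adjusted p = 0.420), and miR-200 C lay within the control range.

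Suz12, the PRC2 scaffold, read 10.90, 10.46 and 10.82 in the controls and 10.44, 10.92 and 11.07 in the miR-200 cultures. The groups overlapped throughout, with control B and miR-200 A lowest. The difference was 0.08 ± 0.23, with an interval of -0.48 to 0.65 or 0.716 to 1.56 as a fold (adjusted p = 0.911), and its sign turned to -0.040 when array medians were subtracted instead. The 6 probe sets of Suz12 did not run one way. The 3 brightest differed by 0.08, 0.11 and 0.01, and the next by -0.30 ± 0.28 and -0.47 ± 0.25 (adjusted p = 0.675 and 0.470). The dimmest, with a mean of 5.17 under the gauge, differed by 0.95 ± 0.61 and read 3.32 on control B. Probe sets whose names end in _s_at or _x_at, among them 3 of Suz12, can match more than 1 transcript.

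Eed, the PRC2 subunit that reads the methyl mark, gave the tightest groups of the 7 genes. It read 10.90, 10.88 and 10.87 in the controls and 11.39, 11.46 and 11.50 in the miR-200 cultures. The means were 10.88 ± 0.01 and 11.45 ± 0.05, a difference of 0.57 ± 0.11 and 1.48-fold (1.22 to 1.81). In limma the unadjusted p was 0.00298 and the adjusted p = 0.120. Control B and miR-200 A did not stand apart here, differing from the other 2 arrays of their groups by -0.0069 and -0.086. Eed passed when the dimmest 40% were left out (adjusted p = 0.0477), where 3.72% of genes passed and 1.1% as higher. It also passed with a variance trend (0.0413, 2.72% of genes and 0.77% as higher) and with array weights (0.0433, 3.33% of genes and 0.951% as higher). Over all settings tried its adjusted p ranged from 0.0121 to 0.478. The second Eed probe set read 3.96, 4.71 and 5.07 in the controls and 5.21, 5.34 and 5.57 in the miR-200 cultures, with a mean under the gauge and a difference of 0.79 ± 0.31 (adjusted p = 0.344).

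**Figure D2:**
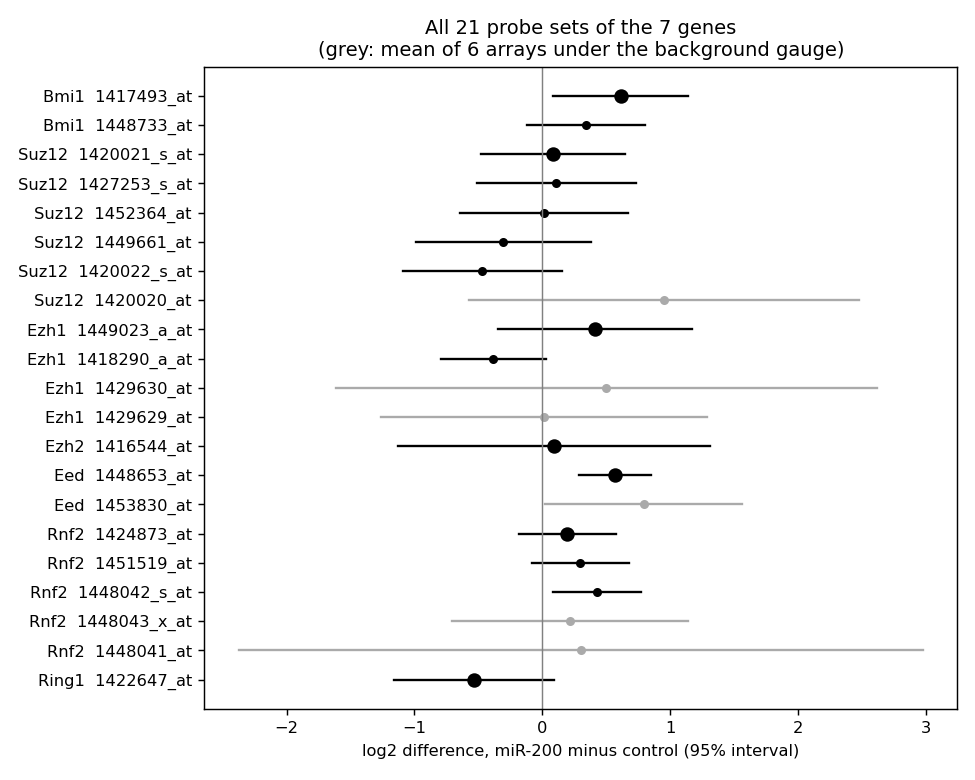
Log2 difference between miR-200 and control cultures with its 95% interval for all 21 probe sets of the 7 genes; large points mark the brightest probe set of a gene and grey marks a mean under the background gauge of 5.28. The intervals of both Ezh1 probe sets above the gauge have centres of opposite sign and both include 0, and the brightest Eed interval, 0.29 to 0.85, is among the narrowest.

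Ezh2, the main methyltransferase of dividing cells, differed more between cultures of a group than between groups. Its single probe set read 11.58, 10.67 and 11.70 in the controls and 10.49, 11.78 and 11.96 in the miR-200 cultures. The low culture of each group was control B and miR-200 A. The group difference was 0.09 ± 0.49 (interval -1.13 to 1.31, adjusted p = 0.960), with a sign that turned to -0.026 when array medians were subtracted. Without those 2 arrays it was 0.23 (adjusted p = 0.406).

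Within the groups, Ezh1, the methyltransferase that prevails in resting cells, ran opposite to Ezh2 on control B and miR-200 A by its brightest probe set. That probe set read 7.67, 8.65 and 7.89 in the controls and 8.79, 8.35 and 8.31 in the miR-200 cultures, highest on control B and miR-200 A. The group difference was 0.41 ± 0.30 (adjusted p = 0.606). It was 0.21 without control A, 0.26 without miR-200 A, 0.70 without control B and 0.14 as the mean of all Ezh1 probe sets. The other Ezh1 probe set above the gauge read 7.47, 7.60 and 7.71 in the controls and 7.45, 7.15 and 7.02 in the miR-200 cultures, with groups that did not overlap and a difference of -0.38 ± 0.16 (adjusted p = 0.382). The probe sets therefore disagree on Ezh1, and the 2 remaining ones lay under the gauge with means of 3.37 and 3.25.

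Within each group and by brightest probe set, 3 of the 7 genes read low and 2 read high on the arrays that stand apart. Control B minus the mean of control A and C was -0.97 for Ezh2, -0.40 for Suz12 and -0.27 for Bmi1, and 0.87 for Ezh1 and 0.27 for Rnf2. The same contrast of miR-200 A with miR-200 B and C was -1.37, -0.55 and -0.57, and 0.46 and 0.24. By comparison, control A and C differed by -0.12 for Ezh2 and miR-200 B and C by -0.18. On these probe sets Bmi1, Suz12 and Ezh2 were lowest of their group on both arrays, 3 of 7 beside 22.9% of all genes, and Ezh1 and Rnf2 highest on both, 2 of 7 beside 23.2%. Other probe sets above the gauge did not all run alike. Control B was the highest control on the second Bmi1 probe set, with a contrast of 0.41, and the lowest on 1 Rnf2 probe set, with -0.20, and on the second Ezh1 probe set the contrast was 0.01. The cell cycle genes are those whose median described control B and miR-200 A as unlike the rest, so their values restate that description. Of 40 listed, 39 were measured and all were above the gauge, and 38 were lowest on both arrays, with median contrasts of -2.50 and -2.94. Their summed linear signal ranged from 23113 to 102586 in the controls and from 24631 to 115727 in the miR-200 cultures. Their part in the Polycomb values was not tested. In such bulk RNA, fewer dividing cells and less RNA per cell cannot be told apart.

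**Figure D3:**
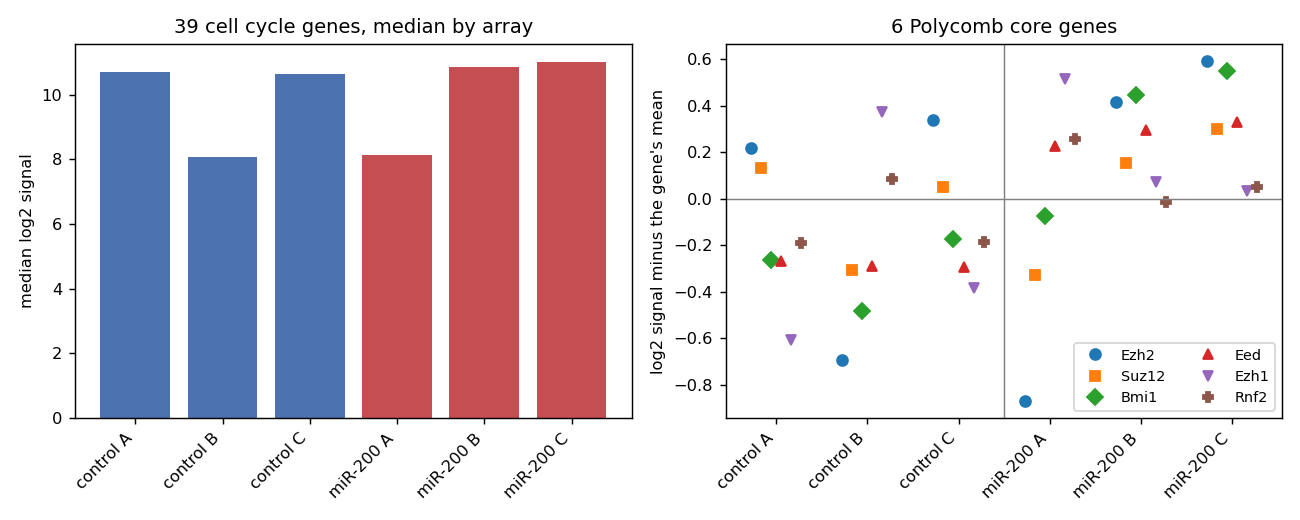
Left, median log2 signal of 39 cell cycle genes on each array (bars from 0, blue control, red miR-200). Right, log2 signal of 6 Polycomb genes minus the gene's mean over the 6 arrays; on control B and miR-200 A, where the cell cycle median is 8.09 and 8.14, Ezh2 and Suz12 are low and Ezh1 is high, whereas Eed separates the groups.

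The promoters of Ezh2 and Suz12 are shown because they alone among the 7 genes held the letters searched. Bmi1, low on the same arrays on its brightest probe set, held none. Windows of 250 bases before to 50 bases after the start are from RefSeq, GRCm38.p6, 5′ to 3′ on the gene's strand. Capitals mark matches to letters bound by E2F factors, the regulators of many cell cycle genes. The letters searched on both strands were TTTCCCGC, TTTCGCGC, TTTGCCGC and TTTGGCGC.
Ezh2, chr6:47594981-47595280, minus strand: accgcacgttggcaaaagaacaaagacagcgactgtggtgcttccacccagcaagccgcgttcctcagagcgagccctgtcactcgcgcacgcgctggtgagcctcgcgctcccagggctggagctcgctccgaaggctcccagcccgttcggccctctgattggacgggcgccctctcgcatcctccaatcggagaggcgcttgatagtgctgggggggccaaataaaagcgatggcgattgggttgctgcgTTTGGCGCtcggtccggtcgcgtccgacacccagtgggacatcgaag
Suz12, chr11:79992856-79993155, plus strand: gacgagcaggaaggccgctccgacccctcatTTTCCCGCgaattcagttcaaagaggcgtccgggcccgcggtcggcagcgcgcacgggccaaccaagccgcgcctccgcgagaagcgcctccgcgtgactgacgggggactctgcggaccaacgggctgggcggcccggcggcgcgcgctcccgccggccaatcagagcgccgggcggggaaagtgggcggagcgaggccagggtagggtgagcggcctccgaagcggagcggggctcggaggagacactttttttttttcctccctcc
Each window held a single match, at bases 254 to 261 of the Ezh2 window and bases 32 to 39 of the Suz12 window. The windows of the other 5 genes held none of these letters. Of 32851 promoter windows of this length, 2.26% held at least 1 match. A match is a description of letters and not of binding.

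With a 2-level term for control B and miR-200 A, 0 of the 7 genes passed, beside 2.64% of all genes (0.715% as higher); the nearest were Eed (adjusted p = 0.0683) and Bmi1 (0.0904). Without both arrays 0 passed as well, beside 0.319% (0.033% as higher), with Eed at 0.123. With the term and with the dimmest 40% left out, Bmi1 and Eed passed as higher (adjusted p = 0.0172 and 0.0121), 2 of 7 beside 17.7% of genes in either direction and 7.02% in the higher one. Adjusted p for Bmi1 ranged from 0.0172 to 0.565 over all settings. Because the 2 levels were taken from these same signals, p-values with the term are smaller than they should be, by how much is not known.

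Among the other genes of both Polycomb complexes, 1 passed, beside 0.945% of all genes. Auts2, a partner in forms of PRC1 that lack Bmi1, fell from 10.68 ± 0.29 to 5.96 ± 0.53, a difference of -4.72 ± 0.32 and 26.4-fold lower (limma, adjusted p = 0.00834). It read 10.52, 11.01 and 10.50 in the controls and 6.54, 5.50 and 5.83 in the miR-200 cultures, far apart in every pair. Another probe set was at least 27.4-fold lower and 1 more at least 7.15-fold lower, against the gauge (adjusted p = 0.00244 and 0.00526). The next was at least 1.39-fold lower, with a miR-200 mean under the gauge, and did not pass (adjusted p = 0.0841), and the last lay under the gauge in both groups. The call of the brightest probe set was lost without control A, control C, miR-200 B or miR-200 C, with adjusted p of 0.0688, 0.0591, 0.0533 and 0.0767, at differences between -4.81 and -4.49. It was also lost with the replicate letter as a block (adjusted p = 0.166).

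Of 22 further PRC1 genes, 20 were measured, 2 of them with means under the gauge. Auts2 was the single one past the threshold, and the median difference was 0.12. By unadjusted p, 5 were under 0.05 as higher and 2 as lower, beside 6.35% and 8.47% of all genes. Bcorl1, a co-repressor gene related to Bcor, read 7.51 ± 0.16 in the controls and 8.14 ± 0.13 in the miR-200 cultures, a difference of 0.63 ± 0.15 (adjusted p = 0.168). Pcgf5, a relative of Bmi1 found with Auts2, read 10.08, 9.62 and 10.00 against 10.33, 10.56 and 10.53, a difference of 0.57 ± 0.17 (adjusted p = 0.250). Both genes had groups that did not overlap on these probe sets. The other Bcorl1 probe set, under the gauge, differed by 0.13 with groups that overlapped. The other Pcgf5 probe sets differed by 0.27, with groups that overlapped, and by 0.49, with groups that did not. None of 8 further PRC2 genes passed, with a median of 0.04. By unadjusted p 1 was under 0.05, as higher, and 0 as lower, beside the same 6.35% and 8.47%. It was Jarid2, which guides PRC2 to chromatin, at 0.42 ± 0.14 (adjusted p = 0.290), whereas its other probe set above the gauge differed by 0.02 with groups that overlapped. Phf19, a Polycomb-like protein gene, differed by 0.37 ± 0.19 (adjusted p = 0.445) and the histone chaperone gene Rbbp7 by -0.20 ± 0.13 (adjusted p = 0.565).

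The enzymes that remove Polycomb marks and the Trithorax genes that oppose Polycomb gave no call. All 9 genes of mark removal were measured, with a median of 0.12 and 0 under 0.05 by limma's unadjusted p. The nearest were Asxl2 and Mysm1, of H2A deubiquitination, and the deubiquitinase gene Usp21, at 0.62 ± 0.25, 0.40 ± 0.18 and 0.54 ± 0.24, with adjusted p from 0.361 to 0.401. Of 18 Trithorax genes, 17 were measured, with a median of 0.21, and by unadjusted p 1 higher and 1 lower lay under 0.05, beside 6.35% and 8.47% of all genes. The median was 0.08 with array medians subtracted. Of these 17, 11 were lowest of their group on both control B and miR-200 A, beside 22.9% of all genes, and the part of the cell cycle pattern in their values was not tested. Setd1a, an H3K4 methyltransferase gene, read 8.05, 7.87 and 8.14 in the controls and 9.05, 8.81 and 8.89 in the miR-200 cultures, a difference of 0.90 ± 0.14 (adjusted p = 0.0782). Kmt2c, a methyltransferase gene of enhancers, read 10.30, 9.88 and 10.09 against 9.23, 8.70 and 8.62, a difference of -1.24 ± 0.22 (adjusted p = 0.0964). The groups of both genes lay apart, the other Setd1a probe set differed by 0.15, and the other Kmt2c probe sets by -1.06 to -0.42. When the dimmest 40% were left out, Setd1a and Kmt2c both passed (adjusted p = 0.0252 and 0.0325), beside 3.72% of genes. Both also passed under array weights, beside 3.33% of genes, and under a variance trend, beside 2.72%. Over all settings the highest adjusted p in limma was 0.357 for Setd1a and 0.309 for Kmt2c, with the replicate block. Smarca2, a remodelling ATPase gene, differed by 0.38 ± 0.18 (adjusted p = 0.407).

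**Figure D4:**
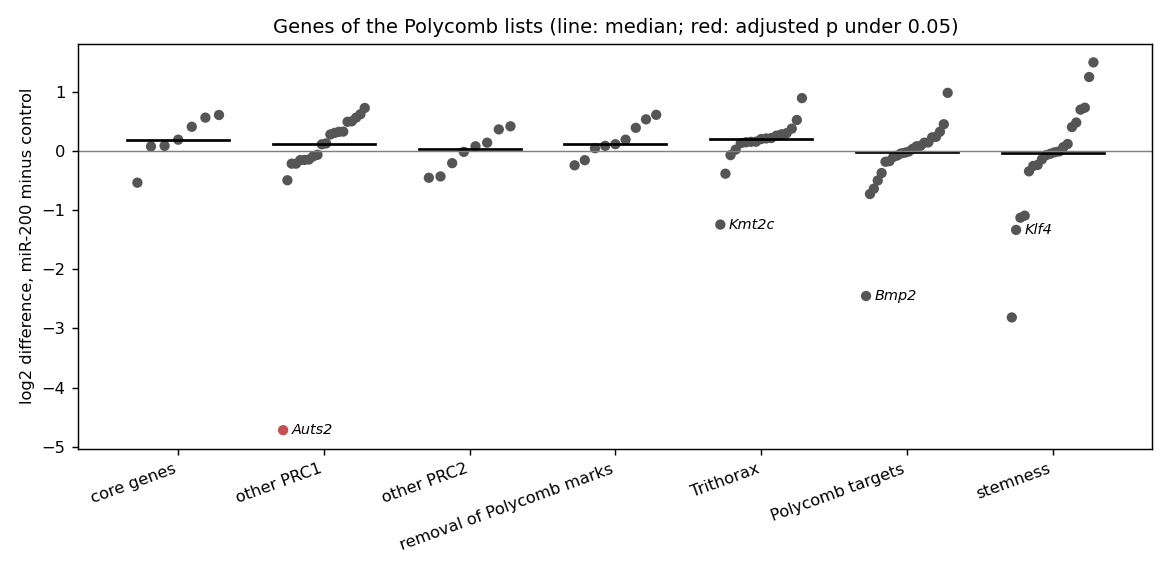
Log2 difference between miR-200 and control cultures for the measured genes of the core set and 6 lists, 1 point per gene at its brightest probe set, with the list median as a line. Auts2, at -4.72, is the single gene past the threshold (red), and most other points lie near 0; the unnamed low point among the stemness genes is Nanog, at -2.81, with a mean under the background gauge.

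Genes listed from general knowledge as Polycomb targets, and genes of stem cells, did not shift together. Some listed targets were clearly expressed in these cells, Foxa1 at 11.41 to 12.18 among them. The list is therefore not a set of genes silenced here, and its median is not a measure of silencing. Of 24 Polycomb target genes 22 were measured and 0 passed, with a median of -0.01. Of these 22, 5 had means under the gauge. By unadjusted p, 1 was under 0.05 as higher and 1 as lower, beside 6.35% and 8.47% of all genes. Cdkn2a, the classic locus repressed by Bmi1 and chosen here after its values were seen, was high throughout at 10.95 to 11.48 and differed by -0.0047 ± 0.19. Bmp2, a growth factor gene, read 8.55, 9.50 and 8.55 in the controls and 7.80, 5.64 and 5.81 in the miR-200 cultures, a difference of -2.45 ± 0.65 (adjusted p = 0.204). It passed without both arrays that stand apart (adjusted p = 0.0480), beside 0.319% of genes. Bmp2 also passed with the 2-level term (0.0381, beside 2.64%) and with array weights (0.0440, beside 3.33%). Over all settings its highest adjusted p was 0.466. The lung endoderm factor gene Foxa1 differed by 0.46 ± 0.16 (adjusted p = 0.294), and Nkx2-2 lay under the gauge.

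Of 21 stemness genes 20 were measured and 0 passed, with a median of -0.03. Of these 20, 5 had means under the gauge. By unadjusted p, 4 were under 0.05 as higher and 4 as lower, beside 6.35% and 8.47% of all genes. With the 2-level term 2 passed as lower, where 350 of all 18193 genes did so and 2.64% passed in either direction. They were Nanog (adjusted p = 0.0494), under the gauge, and the transporter gene Abcg2 (0.0379), both named after their values were seen. Klf4, a pluripotency factor also found in epithelia, read 13.01, 13.17 and 13.05 in the controls and 12.38, 11.51 and 11.36 in the miR-200 cultures, a difference of -1.33 ± 0.29 (adjusted p = 0.145). It passed without miR-200 A, at -1.65 (adjusted p = 0.0352), where 185 of 18193 genes did. Klf4 also passed under array weights (0.0285, beside 3.33% of genes) and under a variance trend (0.0464, beside 2.72%). With the term and the dimmest 40% left out it passed at 0.00625, beside 17.7% of genes. Over all settings its highest adjusted p in limma was 0.405, with the replicate block. Myc, a growth regulator, read 10.92, 11.01 and 11.07 against 11.56, 11.41 and 11.48, a difference of 0.49 ± 0.12 (adjusted p = 0.185). Lin28b, a repressor of let-7 maturation, lay under the gauge in both groups.

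The genes whose 6 values ran most like those of Bmi1, Suz12 and Ezh2 were taken by the smallest root-mean-square distance after each gene's mean was subtracted, over 6 arrays and 13343 other genes above the gauge. For Bmi1 they were Naf1, Stip1 and Nhlrc2, at distances of 0.039, 0.061 and 0.063 on the log2 scale. For Suz12 they were Dlst, Smarcd2 and Smim15, at 0.035, 0.039 and 0.042. For Ezh2 they were Lmf2, Ubac1 and Dek, at 0.070, 0.078 and 0.078. Dek, for a chromatin protein, read 12.15, 11.19 and 12.19 in the controls and 11.05, 12.39 and 12.32 in the miR-200 cultures. Its low values on control B and miR-200 A follow from its selection by distance to Ezh2. Of all genes, 22.9% were lowest of their group on both arrays.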

How the data were processed

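RNA of 6 cultures was hybridized as biotin-labelled cRNA to Affymetrix mouse arrays, per the labels. The authors deposited log2 signals, 1 per probe set and array, with a floor at 0 where 1578 to 1718 probe sets per array lie. Their summarisation and scaling: not given in the sources used here. Per the labels, this was the 430A 2.0 array, whereas the table holds 45101 probe sets, as on the larger design of that family.

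Array medians spanned 0.0924 and interquartile ranges 0.174, over the limit of 0.1, so arrays were quantile normalized, and 64 control probe sets were then left out. Of the 45037 probe sets kept, 34945 have 1 symbol in the platform annotation, 932 several and 9160 none, and 34741 were updated by gene number to RefSeq (GRCm38.p6). The groups were compared with lmFit and eBayes (limma 3.58.1, R 4.3.3, two-sided) on all 6 arrays. There were no detection calls, and 3 arrays per group limit the precision.

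Text names all 7 genes, list members past the threshold, the 3 smallest p per list and the 3 nearest profiles for Bmi1, Suz12 and Ezh2. Members, lists, the gauge and the alternatives were chosen with earlier results of these data known.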

Additional observations from a re-analysis of the deposited data

How the results depend on the processing

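Of 112 results for the 7 genes under alternatives, 100 kept their direction and side of the threshold, 5 gained a call (4 of Eed, 1 of Bmi1) and 7 turned in sign. Suz12 and Ezh2 were at -0.040 and -0.026 with array medians subtracted, and ranged from -0.052 to 0.27 and from -0.23 to 0.55 without 1 array. The number of the 7 genes past the threshold went from 0 to 1 without the dimmest 40%, to 1 with the variance trend, to 1 with array weights, and to 2 with the 2-level term and without the dimmest 40%, the one setting added later. The 335 probe sets past the threshold became 923, 951 and 1291 in the first 3 of these settings and 4606 in the last, 946 with the term, 103 without both arrays that stand apart, and 32 to 328 without 1 array (lowest without control A). With the replicate block 0 of all probe sets and 0 of the 7 genes passed. The deviations of arrays A, B and C correlated across groups at -0.58, -0.67 and 0.43, and those of the 2 arrays that stand apart at 0.71. Because those 2 arrays bear different letters, these correlations cannot show whether cultures were paired by letter. The 18 named list genes gave 284 results, of which 259 were alike, 20 gained a call, 5 lost it (Auts2) and 0 turned in sign. The further PRC1 count went from 1 to 5 with the term and without the dimmest 40%, where Trithorax had 3 and stemness 5, beside 17.7% of all genes. With array medians subtracted, the median difference over the further PRC2 genes and over the mark removal genes turned to -0.07 and -0.01, beside -0.07 over all genes. Fewer arrays and fewer probe sets act in part by construction, and otherwise the cause was not tested. Pseudocounts do not apply to log2 values. Of the 21 probe sets, 6 lay under the gauge, and their differences are the least certain.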

Other observations

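Control B and miR-200 A also carried the highest Cdkn1a, the gene of the cell cycle inhibitor p21 and a gene of the Polycomb target list, chosen after its values were seen. It read 9.39, 11.07 and 9.64 in the controls and 10.96, 8.56 and 8.68 in the miR-200 cultures. Of the 22 measured genes of that list, 6 were highest of their group on both arrays, beside 23.2% of all genes. The other Cdkn genes of the list did not all run alike. Control B differed from the mean of the other controls by 0.78 for Cdkn1c, -0.55 for Cdkn2b and -0.04 for Cdkn2a. The same contrast for miR-200 A was 0.56, 0.02 and -0.13. Phc1, a PRC1 subunit gene also chosen after its values were seen, was low on the same arrays, at 8.15 and 7.53 against 8.81 to 9.10 elsewhere. Of the 20 further PRC1 genes measured, 8 were lowest of their group on both, beside 22.9% of all genes.

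The further PRC1 genes with groups that did not overlap were 6 higher and 3 lower of 20, beside 11.4% and 12.1% of all genes. The genes named here were chosen after their values were seen. Higher were the Bmi1 relatives Pcgf6 (0.73 ± 0.23) and Pcgf3 (0.33 ± 0.12), and Kdm2b, which brings PRC1 to CpG islands (0.51 ± 0.18). Lower were the Bmi1 relative Pcgf2 (-0.21 ± 0.12) and the co-repressor gene Bcor (-0.49 ± 0.16). The relative Pcgf1 had groups that overlapped, at -0.09 ± 0.29. None of these genes passed the threshold, and the Bmi1 relatives did not all run one way.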
